A study of Mus musculus with 2 samples.

Results

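The cells described here are the Plvap-high capillary endothelial cells of the newborn mouse kidney, 119 cells of the Flcn KO library and 104 cells of the Flcn WT library, 223 of the 9227 barcodes kept from both. They were chosen by measured counts of unique molecular identifiers (UMIs, each standing for 1 captured transcript). Barcodes under 1000 UMIs or 500 genes, or with over 20% of UMIs from mitochondrial genes, were dropped. A kept barcode was a member with at least 2 UMIs of Pecam1, at least 1 of Cdh5, at least 5 UMIs of Plvap per 10000, at most 1 UMI of Ehd3, at most 1 of Gja4 and none of Ptprc, the gene of the leukocyte antigen CD45.

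The study made 1 single-cell library from kidneys of Six2Cre; Flcn flox/flox mice (KO) and 1 from mice that the design text gives as Six2Cre; Flcn flox/+ and the labels call Flcn WT, both at postnatal day 0. Both libraries therefore carried the Cre recombinase and at least 1 floxed allele, and the WT library is heterozygous by the design text. The labels name the tissue embryonic kidney and the method 10x Chromium 3′ sequencing, and do not say how many animals were used. Six2-Cre is active in nephron progenitors and the epithelium they form, so it is not a driver for endothelium, and the KO label describes the kidney in which these cells lay. With 1 library per genotype there is no replicate, so no test between genotypes was possible, every interval below is a 95% interval for counting error alone, and genotype, animals and library preparation cannot be told apart.

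Flcn encodes folliculin, which with FNIP1 and FNIP2 acts at the lysosome and keeps TFEB and TFE3, transcription factors of lysosomal genes, out of the nucleus. PLVAP is the protein of the diaphragms that span fenestrae and the mouths of caveolae, and in the kidney it is known from the fenestrated capillaries around the tubules. Glomerular capillaries, which are known for Ehd3, also carry it while they develop, and arterial endothelium, known for the connexin gene Gja4, carries little. PECAM1 and VE-cadherin (Cdh5) hold endothelial cells together, and VEGF from the epithelium keeps fenestrated capillaries alive through the receptors KDR and FLT1.

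The endothelial part of the label was checked against Flt1 and Egfl7, 2 endothelial markers that the rule did not use. Flt1 had a UMI in 118 of 119 KO members and in 104 of 104 WT members, and Egfl7 in 116 KO and 104 WT members. After every cell was thinned to 3000 UMIs, Flt1 had a UMI in 93.3% of KO and 91.3% of WT members, against 0.997% of KO and 0.712% of WT barcodes with no Pecam1 and no Cdh5 UMI, called non-endothelial here. The members are therefore endothelial by genes outside the rule. Flt1 stood at similar levels in the Ehd3 and Gja4 cells described below. It therefore did not check the capillary part of the label, which rests on the rule. Plvap itself summed to 8.61 UMIs per 10000 in KO members and 9.27 in WT members, against 0.0210 in KO and 0.0292 in WT non-endothelial barcodes.

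A high Plvap level did not separate the members from the Ehd3 cells, the endothelial cells with at least 2 Ehd3 UMIs and at most 1 of Gja4. Plvap summed to 7.97 per 10000 in the KO and 9.81 in the WT Ehd3 cells, and 78.5% of KO and 82.0% of WT Ehd3 cells lay at or above the members' limit of 5. In Gja4 cells, with at least 2 Gja4 UMIs and at most 1 of Ehd3, it summed to 1.13 in KO and 1.90 in WT. The rule thus set the members apart from Gja4 cells by the Gja4 limit and from Ehd3 cells by the Ehd3 limit. Plvap was also lower in most Gja4 cells, of which 2 in KO and 3 in WT reached the limit of 5. Ehd3 stood at 0.130 per 10000 in KO and 0.116 in WT members, against 1.11 in KO and 1.32 in WT Ehd3 cells.

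Within the members, Plvap per cell had a median of 7.55 per 10000 in KO (quartiles 6.11 and 10.3, highest 20.04) and 8.31 in WT (quartiles 6.69 and 11.1, highest 50.1). Just inside the limit of 5 lay KO cells at 5.03, 5.03 and 5.08 and WT cells at 5.04, 5.06 and 5.20. Just outside lay KO cells at 4.93, 4.93 and 4.92 and WT cells at 4.82, 4.78 and 4.48. The limit cut through a continuous range of levels, and 26 KO members (21.8%) and 11 WT members (10.6%) lay between 5 and 6. Ehd3 was at its allowed 1 UMI in 40 KO and 34 WT members, and 43 KO and 27 WT cells were kept out with exactly 2 Ehd3 UMIs.

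The KO library held 5991 barcodes with 149679281 UMIs and the WT library 5572 barcodes with 147390790 UMIs, of which 5040 KO and 4187 WT barcodes were kept. More than 20% mitochondrial UMIs removed 11.6% of KO and 17.7% of WT barcodes. The libraries shared 5 barcode sequences, none of them a member. The members had a median of 18803 UMIs per cell in KO (3536 to 117430) and 17070.5 in WT (3244 to 154805), and summed to 2980017 nuclear-encoded UMIs in KO and 2818894 in WT. Doublets were not removed beforehand, and calls without them are given where they change a result.

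Members made up 2.36% of kept KO barcodes (1.96 to 2.82%) and 2.48% of kept WT barcodes (2.03 to 3.00%). Of the endothelial gate, the kept barcodes with at least 2 Pecam1, at least 1 Cdh5 and no Ptprc UMI, they made up 24.3% of 490 cells in KO (20.6 to 28.3%) and 32.2% of 323 cells in WT (27.1 to 37.6%). The share of kept barcodes was thus close in both libraries, and the share of the gate was lower in KO, with intervals that overlap between 27.1 and 28.3%. Ehd3 cells took the other side, 35.1% of the gate in KO (30.9 to 39.5%) and 27.6% in WT (22.8 to 32.8%). Gja4 cells were 12.7% of the gate in both libraries.

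Depth moved with these shares, and a limit of 1 Ehd3 UMI is a lower level in a deeply sequenced cell than in a shallow one. In 4 equal bins of the gate by total UMIs, from lowest to highest, members were 35.8, 31.1, 20.3 and 9.84% of KO cells and 45.7, 37.0, 30.9 and 15.0% of WT cells. The member share fell in each step of both libraries and was lower in KO in every bin. Ehd3 cells were 16.3% of the lowest and 54.9% of the highest KO bin, and 14.8% of the lowest and 47.5% of the highest WT bin. Ehd3 cells had medians of 47582.5 UMIs in KO and 52728 UMIs in WT. With no Ehd3 limit the Plvap-high cells would be 51.8% of the gate in KO and 54.8% in WT, a choice added after seeing the data.

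**Figure D1:**
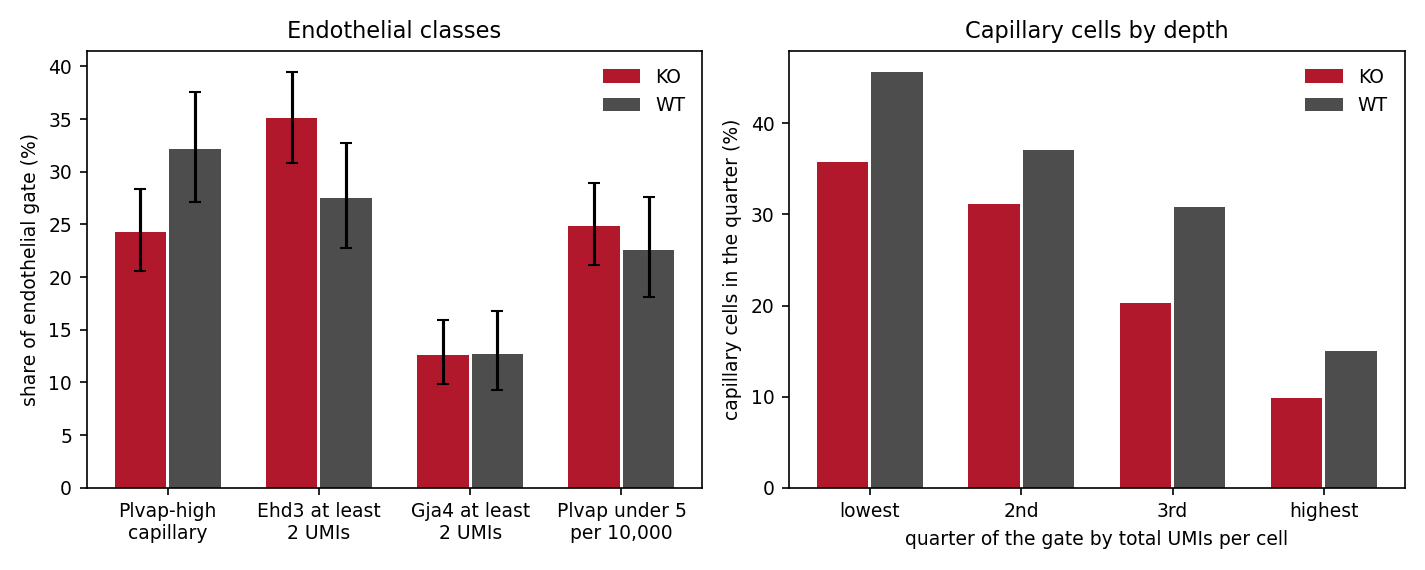
Left, the share of the endothelial gate (%, y axis) taken by 4 classes of endothelial cells in the KO and the WT library, with exact binomial 95% intervals. Right, the share of Plvap-high capillary cells (%, y axis) in 4 equal bins of the gate by total UMIs per cell, lowest to highest, where it is 35.8% in the lowest and 9.84% in the highest KO bin, and 45.7% in the lowest and 15.0% in the highest WT bin.

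Endothelial genes that the rule did not use stood at similar levels in both genotypes. Flt1, the decoy receptor of VEGF, had 4656 UMIs in KO and 4167 in WT members, a KO over WT ratio of 1.06 between levels in CPM, the UMIs of a gene scaled to all nuclear-encoded UMIs of the members. Plvap, whose level the rule fixed from below, had 2656 UMIs in KO and 2712 in WT (0.93), given as a description. Of 9805 genes with at least 50 UMIs over both libraries, 307 (3.13%) were higher in KO by 1.5-fold or more and 312 (3.18%) were lower by as much, and this fold with this minimum is what "passed" means below. The median log2 ratio over the 9805 genes was -0.01. Against that background, none of the 28 pan-endothelial genes counted, of which the rule used Cdh5 alone, passed in either direction, with a median of -0.03.

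**Figure D2:**
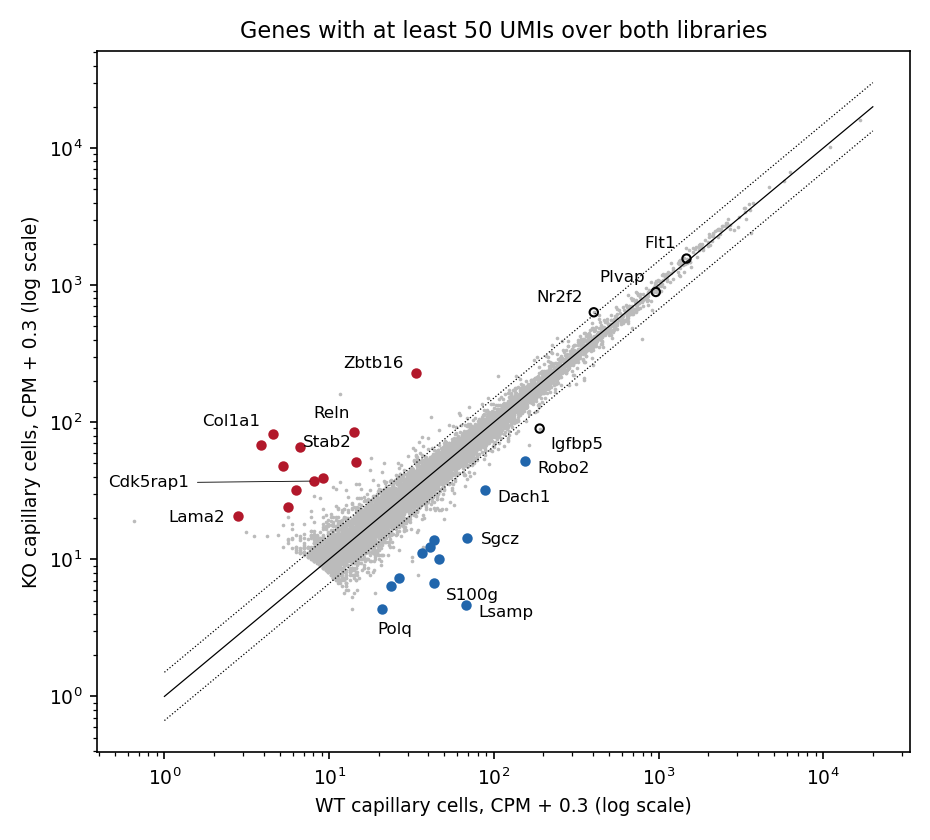
Summed level of each gene in KO (y axis) against WT (x axis) capillary members, in CPM with a small offset, both axes logarithmic; 9805 genes with at least 50 UMIs. The solid line marks equal levels and the dotted lines 1.5-fold, red and blue points are the 12 highest and 12 lowest ranked genes, and open circles mark Flt1, Plvap, Nr2f2 and Igfbp5.

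Few genes of the signals that fenestrated capillaries depend on passed, most of them in the apelin and sphingosine phosphate list and the Notch list. None of 7 VEGF receptor and ligand genes and none of 4 angiopoietin and Tie genes counted passed, and none of 12 caveola and fenestra genes passed. Of 6 apelin and sphingosine phosphate genes, 2 were higher in KO. Apln, the ligand of the endothelial apelin receptor, had 79 UMIs in KO and 47 in WT (ratio 1.59, interval 1.09 to 2.33). Spns2, the exporter of sphingosine phosphate, had 67 UMIs in KO and 42 in WT (1.51, 1.01 to 2.27). Of 16 Notch genes, Lfng, which modifies Notch receptors, was higher (86 UMIs in KO, 54 in WT, ratio 1.51) and Hey1, a Notch target gene, was lower (20 UMIs in KO, 30 in WT, ratio 0.63, with an interval of 0.34 to 1.15 that includes 1). Of 19 genes of BMP and TGF-beta signalling, 1 passed, the receptor gene Bmpr1a, on 36 UMIs in KO and 17 in WT.

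Among 36 endothelial transcription factors, Nr2f2 stood out by its number of UMIs. NR2F2 (COUP-TFII) is the factor known for venous identity. Nr2f2 had 1888 UMIs in 116 of 119 KO members, or 634 CPM, and 1139 UMIs in 94 of 104 WT members, or 404 CPM (ratio 1.57, 1.46 to 1.69). The ratio was 1.501 in Ehd3 cells, 0.887 in Gja4 cells and 1.19 in non-endothelial barcodes, so it was above 1 in both Plvap-high classes, and the difference from Gja4 cells was not tested. After thinning, Nr2f2 had a UMI in 73.1% of KO and 61.5% of WT members and in 78.8% of KO and 71.8% of WT non-endothelial barcodes, a mixture that includes stroma, which is known to express it. Pparg, a regulator of lipid genes, was also higher (65 UMIs in KO, 40 in WT, ratio 1.54). Mecom (558 UMIs in KO, 809 in WT, ratio 0.65) and Tbx3 (35 UMIs in KO, 52 in WT, ratio 0.64) were lower, and without the cell with most UMIs in each library their ratios were 0.73 and 0.75.

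Most other venous genes did not pass. Of 10 venous genes counted, Nr2f2 included, 2 were higher and 2 lower, with a list median of -0.08 on the log2 scale. Nrp2, a co-receptor of VEGF-C and semaphorins, had 1438 UMIs in KO and 1113 in WT (ratio 1.22), and Ephb4, the receptor that marks veins, had 502 in KO and 490 in WT (0.97). Vwf, the von Willebrand factor gene, passed on 99 UMIs in KO and 29 in WT, but 2 members in each library held them all, and its ratio was 0.71 without the top cell of each library. Selp, the P-selectin gene, was lower at 32 UMIs in KO and 102 in WT, with 75.5% of the WT UMIs in 1 cell. Dab2, an endocytic adaptor, was lower at 113 UMIs in KO and 163 in WT (0.66, 0.51 to 0.84).

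The lymphatic list had the highest share of higher genes among the vessel type lists, 2 of 6 counted, with no member lower. Reln, the gene of the secreted glycoprotein reelin, had 250 UMIs in 41 KO members and 39 UMIs in 13 WT members (6.06, 4.31 to 8.73). Mmrn1, the multimerin gene, had 55 UMIs in KO and 22 in WT (2.36, 1.42 to 4.07). Prox1, the factor that sets lymphatic identity, had 104 UMIs in KO and 66 in WT (1.49, 1.08 to 2.06) and did not pass. The other counted genes of the list did not pass either. They were Flt4, the VEGF-C receptor gene that capillaries also express (316 UMIs in KO, 306 in WT, ratio 0.98), Foxc2 (53 in KO, 42 in WT, 1.19) and Pard6g (30 in KO, 20 in WT, 1.42). Below the minimum lay Ccl21a at 0 UMIs in both libraries, Lyve1 at 7 in KO and 6 in WT, and Pdpn at 3 in KO and 4 in WT. Reln was also higher in KO Ehd3 cells, with a ratio of 8.92, and stood at 0.596 in Gja4 cells. Those Gja4 cells also carried Ccl21a, with 287 UMIs in KO and 220 in WT.

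Of 12 arterial genes counted, 3 were higher and 1 lower. The higher ones were Eln (elastin, 214 UMIs in KO, 98 in WT), Mgp (matrix Gla protein, 150 in KO, 60 in WT) and Fbln5 (fibulin-5, 60 in KO, 34 in WT), all genes of the elastic matrix. They sat in few cells, Eln in 23 KO and 22 WT members, Mgp in 11 in each library and Fbln5 in 10 KO and 12 WT members. Leaving out the top cell of each library gave ratios of 1.05 for Eln, 1.83 for Mgp and 1.48 for Fbln5. Of these 3, only Mgp then remained past the fold. The KO member with the most Vwf UMIs held 155 of the KO UMIs of Eln and 90 of those of Mgp. The KO member with the most Col1a1 UMIs held another 35 of the 150 Mgp UMIs. In WT, the members with the most Col1a1 and the most Vwf UMIs held 29 and 11 of the 60 Mgp UMIs. The Mgp ratio without the top cells thus still rested on few cells.

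Of 27 counted angiocrine and vasoactive genes, which endothelium uses to signal to its neighbours, 4 were higher and 4 lower. Ccn2 (CTGF), a matrix protein gene of the YAP response, had 60 UMIs in 22 KO members and 15 UMIs in 12 WT members (3.78, 2.12 to 7.18). Adm, the gene of the vasodilator adrenomedullin, had 69 UMIs in KO and 25 in WT (2.61, 1.63 to 4.31). Both ratios held without the top cells, at 3.55 and 2.64. Kitl, the ligand of KIT, was lower with 776 UMIs in 88 KO members and 1129 UMIs in 82 WT members (0.65, 0.59 to 0.71), and stood at 0.67 without the top cells.

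Igfbp5, which binds insulin-like growth factors, had 267 UMIs in 38 KO members and 534 UMIs in 43 WT members (0.47, 0.41 to 0.55). Rspo3, a Wnt enhancer, had 39 UMIs in KO and 67 in WT (0.55, 0.36 to 0.83). The Igfbp5 ratio was 0.168 in Ehd3 cells and 0.118 in Gja4 cells, below the ratio in members, and 0.753 in non-endothelial barcodes. After thinning, Igfbp5 had a UMI in 9.24% of KO and 19.2% of WT members, against 31.5% of KO and 35.7% of WT non-endothelial barcodes. Unthinned, it was in 31.9% of KO and 41.3% of WT members, against 53.2% of KO and 61.8% of WT non-endothelial barcodes. Those barcodes are a mixture of cells that may express Igfbp5 themselves. This measure therefore cannot tell Igfbp5 UMIs of members from free RNA.

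The genes of the glomerular list gave 1 higher and 2 lower of 13 counted, Sema5a higher and Igfbp5 and Tbx3 lower. With doublets left out the Sema5a ratio fell below 1. Of 14 peritubular capillary genes, Cyp4b1, a fatty acid hydroxylase gene, was higher at 171 UMIs in KO and 94 in WT (1.72, 1.33 to 2.24), and none was lower. Of 18 tip cell genes 2 were higher, Apln and Adm. Of 20 basement membrane genes Lama5, a laminin chain, was lower (50 UMIs in KO, 74 in WT, ratio 0.64), and of 17 junction genes Jam2, a junction adhesion molecule, was lower (0.55), with 0.76 without its top cells.

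The genes ranked farthest from equal expression were sorted into 2 kinds, those spread over many cells and those with a large part of their UMIs in 1. The line between the kinds was not sharp, since 1 cell held 30.3% of the WT UMIs of Sox6, placed here with the spread genes. Ranking used the interval bound nearest to a ratio of 1, for genes with at least 20 CPM in 1 library. Spread over many cells and higher in KO were Zbtb16, Reln, Cdk5rap1, Thrsp and Stab2. Spread and lower were S100g, Ifi27l2a, Polq, Sox6, Col25a1 and Dach1. These 11 kept their side of the 1.5-fold limit without the top cell of each library and with doublets left out.

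Zbtb16 encodes a zinc finger transcription factor (PLZF) that glucocorticoids are known to induce, and lies on chromosome 9 (48654297 to 48836222, minus strand, GRCm38). It had 685 UMIs in 91 of 119 KO members, 230 CPM, and 94 UMIs in 31 of 104 WT members, 33.3 CPM (6.89, 5.55 to 8.65). The ratio was above 1 in every class compared, 5.06 in Ehd3 cells, 2.24 in Gja4 cells, 4.81 in endothelial cells with Plvap under 5 per 10000 and 3.79 in non-endothelial barcodes. After thinning, Zbtb16 had a UMI in 39.5% of KO and 6.73% of WT members, and in 26.4% of KO and 8.33% of WT non-endothelial barcodes. Unthinned, 76.5% of KO and 29.8% of WT members had one, against 52.4% of KO and 26.2% of WT non-endothelial barcodes. The KO share lay above the non-endothelial one and the thinned WT share below it. Thinning left out no member, and 105 KO and 160 WT non-endothelial barcodes with fewer UMIs.

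Thrsp, known for a role in lipid synthesis, had 115 UMIs in 47 KO members and 25 UMIs in 13 WT members (4.35, 2.81 to 7.002; chromosome 7, 97412938 to 97417730, minus strand). Stab2, a scavenger receptor gene of hyaluronan-clearing endothelium, had 153 UMIs in 41 KO and 40 UMIs in 19 WT members (3.62, 2.54 to 5.26; chromosome 10, 86841198 to 87008025, minus strand). Both were seen mainly in endothelium. Thinned Thrsp had a UMI in 10.1% of KO and 0.962% of WT members and in 0.0249% of KO and 0.0593% of WT non-endothelial barcodes. Thinned Stab2 had a UMI in 12.6% of KO and 1.92% of WT members, against 0.0748% of KO and 0.0593% of WT non-endothelial barcodes. Unthinned, Thrsp was in 39.5% of KO and 12.5% of WT members and Stab2 in 34.5% of KO and 18.3% of WT members. Of the 5 genes that were higher and spread over cells, these 2 were the least seen in other barcodes, and both were higher in KO in all 3 other endothelial classes, with Thrsp at 2.66 and Stab2 at 3.96 in Ehd3 cells.

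Cdk5rap1, which modifies mitochondrial transfer RNAs, had 110 UMIs in 58 KO members and 22 UMIs in 17 WT members (4.73, 2.97 to 7.85; chromosome 2, 154335380 to 154373010, minus strand). Its ratio was above 1 in every class compared, 4.84 in Ehd3 cells, 5.58 in Gja4 cells, 2.696 in Plvap-low cells and 2.27 in non-endothelial barcodes. Reln after thinning had a UMI in 10.1% of KO and 0.962% of WT members, against 15.0% of KO and 8.48% of WT non-endothelial barcodes, so its share in members was not above that of the other barcodes. Unthinned, Reln was in 34.5% of KO and 12.5% of WT members, against 25.04% of KO and 18.5% of WT non-endothelial barcodes.

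S100g, the gene of the calcium-binding protein calbindin-D9k of the distal nephron, was lower, with 19 UMIs in 18 KO members and 121 UMIs in 62 WT members (0.149, 0.086 to 0.242). The ratio was 0.142 in non-endothelial barcodes, 0.136 in Ehd3 cells and 0.175 in Gja4 cells. Thinned, it had a UMI in 3.36% of KO and 15.4% of WT members, against 5.71% of KO and 18.2% of WT non-endothelial barcodes, and unthinned in 15.1% of KO and 59.6% of WT members, against 24.2% of KO and 66.1% of WT non-endothelial barcodes. Both member shares lay below those of the other barcodes. Those barcodes may include cells of the distal nephron, which express S100g themselves. This measure therefore cannot tell S100g UMIs of members from free RNA. S100g lies on chromosome X (162961992 to 162964599, minus strand) inside an overlap with Ctps2 on the other strand.

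The other lower genes spread over cells had fewer UMIs. Ifi27l2a, an interferon-inducible gene, had 29 UMIs in KO and 131 in WT (0.209), while of 29 interferon response genes counted only Irf7 passed, lower at 70 UMIs in KO and 121 in WT (0.55). Dach1, a transcription factor gene of developing vessels and nephrons, had 95 UMIs in 27 KO and 249 UMIs in 32 WT members (0.361, 0.282 to 0.459). After thinning, Dach1 had a UMI in 3.36% of KO and 16.3% of WT members, against 60.7% of KO and 61.7% of WT non-endothelial barcodes, again below the other barcodes. Unthinned these values were 22.7% of KO and 30.8% of WT members, against 77.0% of KO and 77.6% of WT non-endothelial barcodes. Polq (0.196), Sox6 (0.258) and the transmembrane collagen gene Col25a1 (0.313) were the remaining ones.

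Several of the most extreme ratios rested on a single cell. Col1a1 had 244 UMIs in KO and 12 in WT members (ratio 19.2), with 88.9% of the KO UMIs in 1 cell of 114217 UMIs that also had 10 UMIs of Pdgfra, a stromal receptor gene, 102 of Flt1 and 112 of Plvap. Without the top cells the Col1a1 ratio was 5.11, and with doublets left out it was 0.992. Col3a1 and Col1a2 had ratios of 19.3 and 10.4 and moved with it. Summed stroma markers, a list that holds these 3 collagens, were 350 CPM in KO and 94.01 CPM in WT members. The 7 other stroma markers summed to 397 UMIs (133 CPM) in KO, 149 of them in the cell with most Col1a1, and to 225 UMIs (79.8 CPM) in WT, and their part in the collagen ratios was not tested. The WT side had the same pattern, with 90.5% of the 189 Lsamp UMIs, 84.6% of the 436 Robo2 UMIs and 97.3% of the 74 Nell1 UMIs in 1 cell each. Some of these cells were the same. A single WT member held 369 UMIs of Robo2, 72 of Nell1 and 111 of Sgcz. Another held 171 of Lsamp, 77 of Selp and 88 of Fbln2. In KO, 1 member held 96 UMIs of Vwf, 155 of Eln, 90 of Mgp and 126 of Fbln2. The ratios of these genes are therefore not independent of each other. Without the top cells the Robo2 ratio was 1.47 and the Nell1 ratio 2.36, against 0.336 and 0.268 with them. Lama2, Aff3, Pcdh9, Sema5a, Sgcz and Selp had 33.8% or more of their UMIs in 1 cell of the library where they were higher. Each stayed past the fold without the top cells. The intervals then excluded 1 for Pcdh9 (7.66), Sema5a (3.70) and Sgcz (0.385), and included 1 for Lama2 (3.07), Aff3 (2.06) and Selp (0.530).

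**Figure D3:**
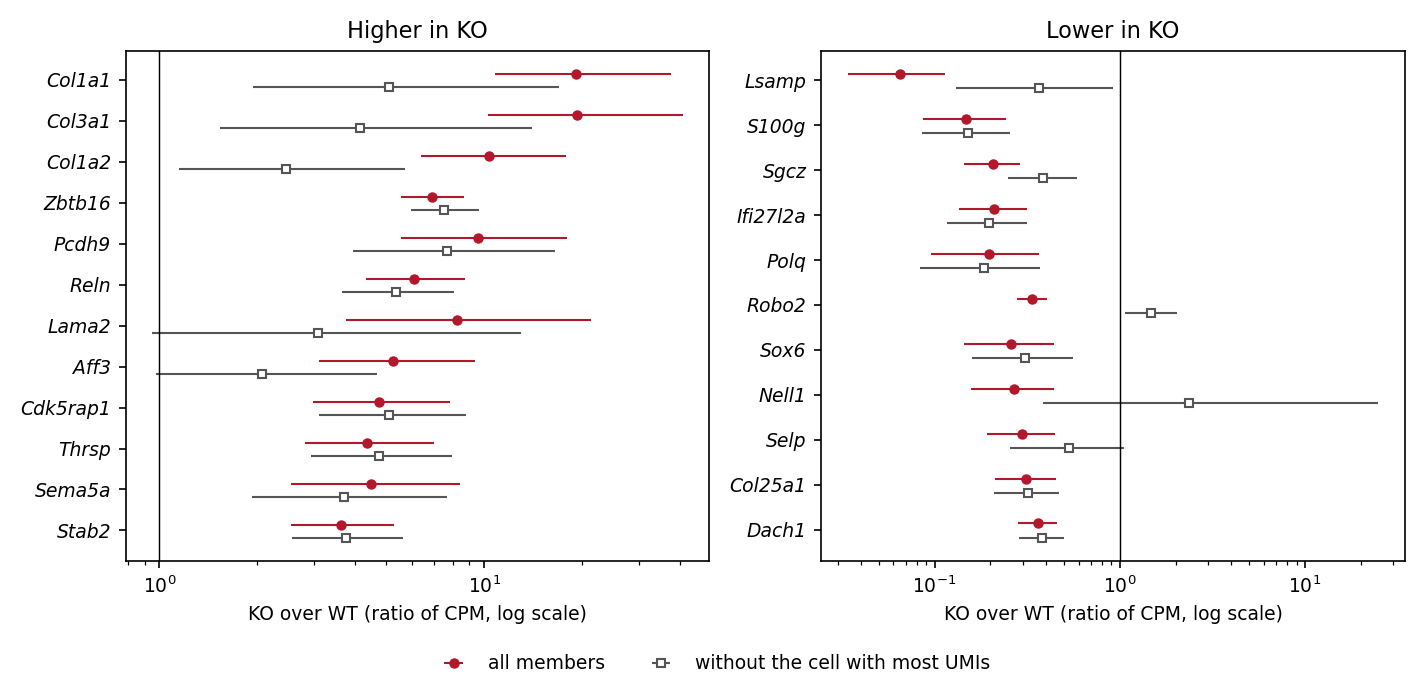
KO over WT ratio of CPM (x axis, logarithmic) of the 12 highest and 11 of the 12 lowest ranked genes in capillary members, with 95% counting intervals. Filled circles use all members and open squares leave out the cell with most UMIs of the gene in each library; Zbtb16 stands at 6.89 and 7.52, while Robo2 crosses 1, at 0.336 and 1.47.

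Over all genes, 284 of the 307 higher and 266 of the 312 lower ones still passed without the top cell, and 22 higher and 9 lower genes had at least 50% of their UMIs in 1 cell. Marker sums of other cell types in members were close or differed as follows, in CPM and as whole lists. Tubule epithelial markers summed to 22.5 CPM in KO and 20.2 in WT, nephron progenitor markers to 82.2 in KO and 80.9 in WT, and proximal tubule markers to 19.1 in KO and 35.8 in WT. Erythroid markers summed to 179 CPM in KO and 21.6 in WT, with 459 of the 475 KO UMIs of Hbb-bs in 1 cell. Macrophage markers summed to 71.8 CPM in KO and 52.9 in WT, mural markers to 147 in KO and 111 in WT, and podocyte markers to 210 in KO and 290 in WT, mostly Podxl, which endothelium also expresses (120 CPM in KO, 181 CPM in WT).

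Among the lists of signalling, metabolic and stress genes, the glucocorticoid responsive genes had the median farthest from that of all genes. All 13 counted had a ratio above 1, 4 passed, and the list median was 0.48 on the log2 scale, beside -0.01 over all 9805 genes. The gene lists were chosen with earlier results of these data known, and the median of this list was not a planned result. Its place among the lists is therefore a description only. Sult1a1, a sulfotransferase gene, had 327 UMIs in 76 KO and 116 UMIs in 46 WT members (2.67, 2.15 to 3.32). Hif3a, a hypoxia-inducible factor subunit that glucocorticoids induce, had 232 UMIs in 76 KO and 102 UMIs in 41 WT members (2.15, 1.70 to 2.74). Fkbp5, the glucocorticoid receptor co-chaperone, had 348 UMIs in 90 KO and 173 UMIs in 52 WT members (1.90, 1.58 to 2.30). Zbtb16, given above, was the fourth.

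The 9 other glucocorticoid responsive genes lay between 1.04 and 1.49. Per1, a clock gene, stood at 1.49 (1.09 to 2.02), Cdkn1a, a cell cycle inhibitor, at 1.42 (1.14 to 1.77), Klf9 at 1.40 (1.22 to 1.60) and Tsc22d3 (GILZ) at 1.36 (1.09 to 1.71). Sgk1, the kinase that controls sodium channels, stood at 1.04 (0.974 to 1.12) on 1727 UMIs in KO and 1565 in WT. In Ehd3 cells Tsc22d3, Errfi1 and Sgk1 lay below 1, and in Gja4 cells Per1, Klf9, Cdkn1c, Dusp1 and Sgk1 did. The 4 genes that passed were above 1 in the other 3 groups plotted too, non-endothelial barcodes included, where Sult1a1 stood at 3.20 and Fkbp5 at 2.05. Thinned Sult1a1 had a UMI in 22.7% of KO and 11.5% of WT members, against 5.48% of KO and 1.87% of WT non-endothelial barcodes, and unthinned in 63.9% of KO and 44.2% of WT members, against 17.8% of KO and 8.21% of WT non-endothelial barcodes. Thinned Fkbp5 had a UMI in 21.0% of KO and 12.5% of WT members, against 24.4% of KO and 13.3% of WT non-endothelial barcodes. Unthinned, it was in 75.6% of KO and 50% of WT members, against 64.5% of KO and 51.2% of WT non-endothelial barcodes, so the order in KO turned with thinning.

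**Figure D4:**
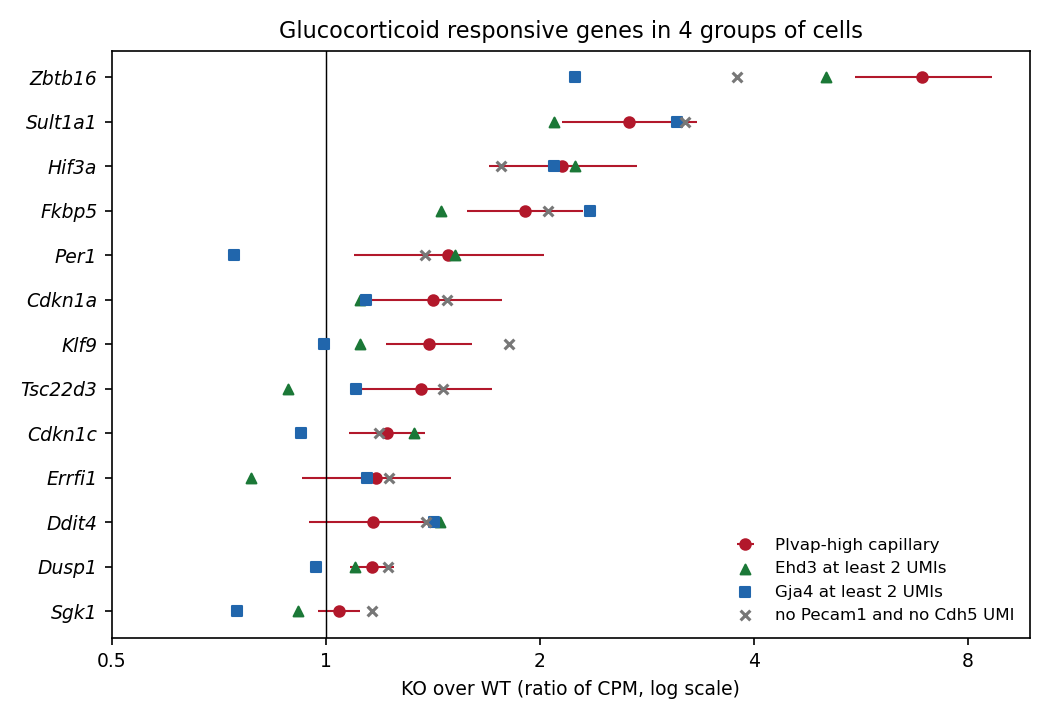
KO over WT ratio of CPM (x axis, logarithmic) of 13 glucocorticoid responsive genes in capillary members, with 95% counting intervals, and in Ehd3 cells, Gja4 cells and non-endothelial barcodes. In members all 13 lie at or above 1.04, and Zbtb16, Sult1a1, Hif3a and Fkbp5 lie above 1.5.

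Promoter windows of 250 bases before to 50 bases after the start are shown for the 3 of the 4 genes that RefSeq windows (GRCm38.p6) covered, to display the sequence at the genes that passed together. The window of Sult1a1 is chr7:126676369-126676668, that of Hif3a chr7:17062378-17062677 and that of Fkbp5 chr17:28486100-28486399, all on the minus strand and written 5′ to 3′ along the gene. Capitals mark AGAACA, a half-site of the glucocorticoid receptor motif, or its reverse complement TGTTCT, searched on both strands.
Sult1a1: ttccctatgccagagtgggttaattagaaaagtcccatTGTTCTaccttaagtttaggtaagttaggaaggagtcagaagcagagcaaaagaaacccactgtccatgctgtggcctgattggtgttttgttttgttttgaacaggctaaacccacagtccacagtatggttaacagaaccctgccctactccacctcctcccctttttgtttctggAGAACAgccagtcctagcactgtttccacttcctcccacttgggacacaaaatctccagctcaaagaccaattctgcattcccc
Hif3a: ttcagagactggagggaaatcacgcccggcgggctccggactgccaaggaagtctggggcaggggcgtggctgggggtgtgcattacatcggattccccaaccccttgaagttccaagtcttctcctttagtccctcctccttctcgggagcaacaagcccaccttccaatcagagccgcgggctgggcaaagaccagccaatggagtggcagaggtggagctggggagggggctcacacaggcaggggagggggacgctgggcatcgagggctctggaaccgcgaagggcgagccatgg
Fkbp5: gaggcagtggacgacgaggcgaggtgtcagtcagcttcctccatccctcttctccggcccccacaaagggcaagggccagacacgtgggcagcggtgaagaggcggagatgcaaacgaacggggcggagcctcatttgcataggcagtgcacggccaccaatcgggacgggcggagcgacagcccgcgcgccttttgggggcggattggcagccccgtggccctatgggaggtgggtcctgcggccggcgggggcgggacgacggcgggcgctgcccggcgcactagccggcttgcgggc

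The Sult1a1 window held 2 matches to the half-site, 1 in each orientation, and the windows of Hif3a and Fkbp5 held none. Of the 11 counted list genes with a window, 3 had a match (27.3%), namely Sgk1, Sult1a1 and Tsc22d3. The share was 13.8% of the 7713 counted genes with a window. A gene can have several windows, which raises its part in such a share. Counted by window, 23.8% of the 21 list windows had a match. It was 11.8% of the 9919 windows of counted genes and 18.97% of all 32851 windows. A match is a description and not a binding site.

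Folliculin pathway genes stood near equal levels, with none of 15 counted past the fold. Flcn had 29 UMIs in 24 KO members and 30 UMIs in 26 WT members (0.91, 0.53 to 1.58), at 9.73 CPM in KO and 10.6 CPM in WT. Reads of 3′ libraries do not cover the whole transcript evenly, and which exons the floxed allele removes is not given. Flcn is therefore no check of deletion here. Fnip1 had a ratio of 1.15 (355 UMIs in KO, 291 in WT) and Fnip2 of 1.05 (131 in KO, 118 in WT). Tfeb had 34 UMIs in KO and 25 in WT (1.29, 0.74 to 2.25), Tfe3 93 in KO and 79 in WT (1.11), Mitf 17 in KO and 12 in WT (1.34) and Tfec 0 in KO and 1 in WT. All intervals of these 7 genes include 1.

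The programme that TFEB and TFE3 are known to drive was likewise near the median of all genes. None of 20 target genes counted passed, with a median of 0.02. Of 39 lysosomal genes 2 were higher, Tmem192, a lysosomal membrane protein gene (63 UMIs in KO, 28 in WT, ratio 2.13), and Galns, a sulfatase gene (34 UMIs in KO, 18 in WT, ratio 1.79, interval 0.98 to 3.36). The list median was -0.03. None of 16 vacuolar ATPase subunits passed, and of 29 autophagy genes Optn, an autophagy receptor gene, was lower (66 UMIs in KO, 95 in WT, ratio 0.66).

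Genes of the cell cycle were mostly lower in KO sums, and the mitosis list turned its direction with the weighting of cells and the limits of the rule. Of 30 DNA replication genes 25 lay below 1 and 4 passed, the ribonucleotide reductase subunits Rrm1 (0.63) and Rrm2 (0.56), the chromatin remodeller Hells (0.61) and the flap endonuclease Fen1 (0.60). Of 38 mitosis genes 3 passed, the spindle gene Nusap1 (0.53), the checkpoint kinase gene Bub1 (0.62) and the kinetochore gene Nuf2 (0.60). Each list had a median of -0.31 on the log2 scale. The sums weight cells by their depth. When each cell was thinned to 3000 UMIs the mitosis median was 0.034, and as a mean of CPM over cells it was -0.048. With Ehd3 and Gja4 at 0 it was 0.28, and with no Ehd3 limit 0.20. Without cycling cells it was 0.67, but that setting left out cells by UMIs of this same list. Its value therefore reflects the filter and cannot show a turn. The DNA replication median was above 0 only without cycling cells, at 0.18, among the alternatives that gave it a value. No conclusion is drawn from that value either, since the cells were chosen by cell cycle genes.

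Counted as cells, the difference was within counting error. After thinning to 3000 UMIs, 53 of 119 KO members (44.5%, 35.4 to 53.9%) and 52 of 104 WT members (50%, 40.03 to 59.97%) had at least 2 UMIs of mitosis genes. The unthinned shares were 89.9% in KO and 85.6% in WT. Thinned, Ehd3 cells lay at 62.8% in KO (55.1 to 70.03%) and 52.8% in WT (41.9 to 63.5%, an interval that overlaps that of WT members), and Gja4 cells at 25.8% in KO and 21.95% in WT. Unthinned, Ehd3 cells lay at 97.7% in KO and 94.4% in WT and Gja4 cells at 90.3% in KO and 100% in WT, so the order of members and Gja4 cells turned with thinning. Phase was not called, and free RNA of dividing cells can add to these counts.

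Metabolic and stress lists held few genes that passed. Of 19 sterol synthesis genes Nsdhl was higher (1.70) and Cyp51 and Sc5d were lower (0.53 and 0.57), 16 hypoxia genes gave Adm alone, and of 36 genes of the response to tissue dissociation none passed. The dissociation list had a median of 0.13, with Fos at 5582 UMIs in KO and 4131 in WT (1.28) and Egr1 at 2514 in KO and 1846 in WT (1.29). None of 44 oxidative phosphorylation genes passed, and their median was -0.05.

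Set against the other endothelial classes, the members had a programme unlike that of Gja4 cells. The classes were cut by measured Plvap, Ehd3 and Gja4, so what follows is a description of the cut cells, without a test, and the 6 genes of the rule are left out. Of 9090 genes, 612 (6.73%) were at least 1.5-fold higher in members and 631 (6.94%) at least 1.5-fold lower in both libraries. Higher in members was Nlgn1, the neuroligin-1 gene, at 1051 CPM in members and 46.9 CPM in Gja4 cells in KO, and at 1173 CPM in members and 62.1 CPM in Gja4 cells in WT. Unc5c, a netrin receptor gene, was 17.2-fold higher in KO and 9.34-fold in WT, and F8, the gene of coagulation factor VIII, 8.74-fold in KO and 8.61-fold in WT. Gpr182, an atypical chemokine receptor gene, was 12.02-fold higher in KO and 8.39-fold in WT, and Ptgs1, the cyclooxygenase-1 gene, 10.6-fold in KO and 8.40-fold in WT.

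Of 9 venous genes with at least 50 UMIs over both classes in each library, 5 were at least 1.5-fold higher in members in both libraries and none was lower in both. Dab2 stood at 0.48 in KO and 0.74 in WT, and Vwf at 2.74 in KO and 0.11 in WT. Of 13 peritubular capillary genes 3 were higher and 5 lower. Aplnr, the apelin receptor gene, was 6.13-fold higher than in Gja4 cells in KO and 4.76-fold in WT. Nr2f2 was 4.25-fold higher in KO and 2.41-fold in WT, Tek, the angiopoietin receptor gene TIE2, 3.62-fold in KO and 2.38-fold in WT, and Emcn (endomucin) 1.66-fold in KO and 1.93-fold in WT. Of 17 arterial genes 16 were lower in members in both libraries, and the exception was Eln, at 1.62 in KO and 0.03 in WT. Gja5, the connexin 40 gene, had 0.336 CPM in KO members and 50.5 CPM in KO Gja4 cells, and 0.709 CPM in WT members and 66.9 CPM in WT Gja4 cells. Aqp1, the water channel of arterioles and descending vasa recta, stood at ratios of 0.02 in KO and 0.01 in WT, and the chemokine gene Cxcl12 at 0.04 in KO and 0.01 in WT. The Notch ligand genes Jag1 (0.03 in KO, 0.04 in WT) and Dll4 (0.38 in KO, 0.42 in WT) were lower as well. Cav1, the main caveolin gene, was lower in members too, at 0.11 in KO and 0.16 in WT. Some genes of the lymphatic list were also lower in members. Ccl21a had 287 UMIs in KO and 220 in WT Gja4 cells and 0 in members. Lyve1 had 206 in KO and 83 in WT Gja4 cells, against 7 in KO and 6 in WT members. Flt4 went the other way, at 1.40 in KO and 1.46 in WT. Gja4 cells are therefore not taken as arterial alone.

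Against Ehd3 cells the members differed in far fewer genes. Of 10545 genes, 34 (0.322%) were higher and 67 (0.635%) lower in both libraries. None of 9 venous and none of 14 peritubular capillary genes was higher or lower in both. Of 15 arterial genes 4 were higher, and of 12 glomerular genes 2 were lower. Aplnr stood at 1.001 in KO and 1.12 in WT, and Tek at 1.07 in KO and 0.98 in WT. Emcn stood at 1.01 in KO and 1.04 in WT, and Nr2f2 at 0.988 in KO and 0.946 in WT. These genes, higher in members than in Gja4 cells, thus stood near their Ehd3 cell levels. Fbln2 (fibulin-2) had 51.3 CPM in members and 16.2 CPM in Ehd3 cells in KO, and 38.3 CPM in members and 8.53 CPM in Ehd3 cells in WT, and Eln was 2.83-fold higher in KO and 2.19-fold in WT. Of the KO member UMIs, 1 cell held 126 of 153 for Fbln2 and 155 of 214 for Eln. Of the WT member UMIs, 1 cell held 88 of 108 for Fbln2 and 45 of 98 for Eln. The Fbln2 contrast thus rested mainly on 1 cell in each library, and so did that of Eln in KO. Cmss1 (2.44-fold in KO, 2.21-fold in WT) and Camk1d (1.70-fold in KO, 1.62-fold in WT) were also higher. Ranked among the highest with them were Mir6236 (2.15 in KO, 2.32 in WT), Cdk8 (1.94 in KO, 1.71 in WT), Lars2 (1.64 in KO, 1.46 in WT) and Malat1 (1.22 in KO, 1.24 in WT). The greater depth of Ehd3 cells, 47582.5 UMIs per cell in KO and 52728 in WT, moved with this contrast, its part not tested. Lower in members were Wt1 and Magi2, genes of podocytes, with ratios of 0.32 in KO and 0.15 in WT for Wt1, and 0.08 in KO and 0.39 in WT for Magi2. Podocyte markers summed to 210 CPM in members and 339 CPM in Ehd3 cells in KO, and to 290 CPM in members and 356 CPM in Ehd3 cells in WT, and their part was not tested. Sema5a (0.48 in KO, 0.19 in WT), Dach1 (0.27 in KO, 0.58 in WT) and Tbx3 (0.56 in KO, 0.55 in WT), genes of the glomerular list or of developing vessels, were lower as well.

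**Figure D5:**
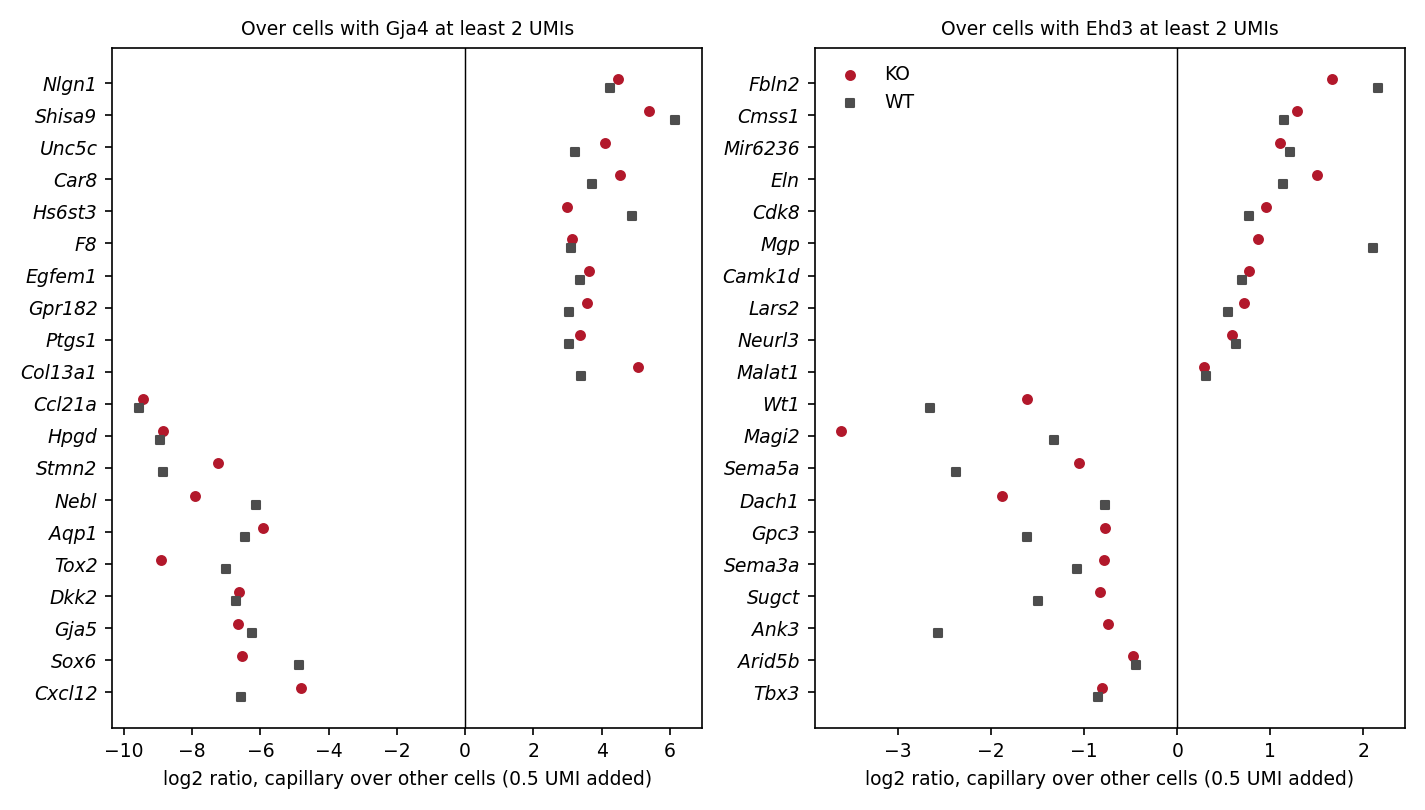
Log2 ratio of summed CPM (x axis, 0.5 UMI added) of capillary members over Gja4 cells (left) and over Ehd3 cells (right) for the ranked genes, KO as circles and WT as squares. Ratios over Gja4 cells reach far beyond those over Ehd3 cells, and the ranking took genes that lie on the same side of 0 in both libraries.

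The members were not uniform among themselves. When each library was split at its median Plvap level, 77 of 6808 genes were at least 1.5-fold higher and 61 lower in the cells above it in both libraries, a description, since the rule used Plvap. Igfbp5 had 136 CPM in the upper and 37.7 CPM in the lower cells of KO, and 309.7 CPM in the upper and 59.7 CPM in the lower cells of WT. Rarb, a retinoic acid receptor gene, was 1.99-fold higher in the upper cells in KO and 2.46-fold in WT, and Chst2, a sulfotransferase gene, 2.50-fold in KO and 2.57-fold in WT. Lower in the upper cells were Cav1 (0.33 in KO, 0.38 in WT), Mgp (0.34 in KO, 0.31 in WT), Sparcl1 (0.54 in KO, 0.38 in WT) and Vcan, the versican gene (0.02 in KO, 0.09 in WT). Cav1, lower in members than in Gja4 cells, was thus also lower in the members with more Plvap.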

How the data were processed

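Per the labels, 1 droplet library (10x, 3′ kit version 2) was made per genotype, and per the file headers the authors' matrices came from Cell Ranger 7.1.0 (KO) and 7.0.0 (WT). The submitters' processing notes name bcl2fastq 2.20.0, STAR 2.7.2a and GRCm38 (mm10). The deposited values are whole-number UMI counts per gene and barcode. Members and gene lists were chosen with earlier results of these data known.

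Counts were summed over cells and divided by nuclear-encoded UMIs (CPM). Intervals of ratios are exact conditional ones and those of shares Clopper-Pearson, and 0.5 UMI was added to each sum before log2 values were taken. Genes with 50 UMIs over both libraries were counted, and 1.5-fold either way was the call. Named genes were the 12 highest and 12 lowest by the interval bound nearest to 1 (at least 20 CPM in 1 library), 10 each side against other classes, and the members of lists farthest from 1. Ribosomal, haemoglobin, mitochondrial and unnamed genes were left out of ranking, and a few genes that met these rules are not reported here. The interval calculation was tested on simulated data. Cycling meant at least 2 mitosis UMIs after thinning to 3000. Scrublet's own threshold called 2 KO and 41 WT barcodes, so the doublet alternative left out its highest scores instead, 242 KO and 187 WT barcodes. Alternatives changed the limits of the rule, doublets (Scrublet, scanpy 1.11.5), scaling (edgeR 4.0.16, DESeq2 1.42.0), thinning, minimum counts and single cells. Python 3.11.15, numpy 2.4.6, scipy 1.17.1, pandas 2.3.3, matplotlib 3.10.9 and R 4.3.3 were used, with gene positions from GENCODE M21.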

Additional observations from a re-analysis of the deposited data

Results flagged for a closer look

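In 12 of the genes reported the KO over WT ratio lay on opposite sides of 1 in capillary members and in another endothelial class, with both ratios beyond 1.5-fold on at least 50 UMIs. Each group is 1 library, so these differences were not tested.

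Most of them set members against Gja4 cells, and 3 are the elastic matrix genes. Eln stood at 2.07 in members and at 0.0378 in Gja4 cells (110 UMIs in KO, 1931 in WT), Mgp at 2.36 in members and 0.114 in Gja4 cells (203 in KO, 1183 in WT), and Fbln5 at 1.67 in members and 0.256 in Gja4 cells (277 in KO, 718 in WT). In members 1 cell held 72.4% of the KO UMIs of Eln, 60% of those of Mgp and 58.3% of those of Fbln5. Vwf stood at 3.23 in members, with 97.0% of the KO UMIs in 1 cell, and at 0.131 in Gja4 cells (30 in KO, 152 in WT). That same KO member held 155 UMIs of Eln and 90 of Mgp, so these genes are not separate differences.

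Reln stood at 6.06 in members and at 0.596 in Gja4 cells (194 UMIs in KO, 216 in WT). Pcdh9, a protocadherin gene, stood at 9.59 in members, with 43.0% of the KO UMIs in 1 cell, and at 0.580 in Gja4 cells (125 in KO, 143 in WT). Cyp4b1 stood at 1.72 in members and at 0.415 in Gja4 cells (25 in KO, 40 in WT). Bmpr1a stood at 2.003 in members, with 47.2% of the KO UMIs in 1 cell, at 0.316 in Gja4 cells (20 in KO, 42 in WT) and at 0.595 in Plvap-low cells (135 in KO, 147 in WT).

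Against Plvap-low cells, Sema5a stood at 4.48 in members, with 33.8% of the KO UMIs in 1 cell, and at 0.521 in Plvap-low cells (246 UMIs in KO, 306 in WT). With doublets left out the Sema5a ratio in members fell below 1. Pparg stood at 1.54 in members and at 0.608 in Plvap-low cells (30 in KO, 32 in WT, with an interval of 0.357 to 1.03 that includes 1). Lsamp stood at 0.0651 in members, with 90.5% of the WT UMIs in 1 cell, and at 1.85 in Plvap-low cells (57 in KO, 20 in WT). Of the genes reported, Hey1 did so in Ehd3 cells, at 0.631 in members (interval 0.339 to 1.15) and at 1.57 in Ehd3 cells (105 UMIs in KO, 36 in WT).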

How the results depend on the processing

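No paired analysis was possible because each genotype has 1 library. Leaving out doublets (3 members in each library), a 10% mitochondrial limit, TMM or median-of-ratios scaling (log2 shift 0.01 each), and leaving out top cells or the member with most other-type UMIs moved none of the shares, counts or list medians. Doublet removal put Aff3 at 0.744, Col1a1 at 0.992, Col1a2 at 0.744 and Sema5a at 0.926.

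With Ehd3 and Gja4 at 0, members were 1.49% (KO) and 1.58% (WT) of kept barcodes and 15.3% (KO) and 20.4% (WT) of the gate, the mitosis median was 0.28 and 129 genes were lower than in Ehd3 cells. With Plvap at least 10, members were 0.635% (KO) and 0.836% (WT) of kept barcodes and 6.53% (KO) and 10.8% (WT) of the gate, cycling in WT 40%, the DNA replication median -0.51, the dissociation median 0.26, the Ehd3 contrast 77 higher and 366 lower, Selp 2.04 and Sgcz 1.02. Without cycling cells, members were 1.31% (KO) and 1.24% (WT) of kept barcodes and 13.5% (KO) and 16.1% (WT) of the gate, DNA replication 0.18, mitosis 0.67, and contrasts 59 higher and 349 lower (Ehd3) and 397 higher (Gja4). Cycling cells were left out by UMIs of the mitosis list, so the mitosis median here reflects the filter.

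The following member limits were added after seeing the data. With Ehd3 under 0.5 per 10000, KO members were 28.6% of the gate, KO cycling 55.0%, mitosis -0.12, and the Ehd3 contrast 12 higher and 38 lower. With no Ehd3 limit, members were 5.04% (KO) and 4.23% (WT) of kept barcodes and 51.8% (KO) and 54.8% (WT) of the gate, and mitosis 0.20. Leaving out other-type UMIs with markers that endothelium carries kept gave a lysosomal median of -0.078, 153 genes lower than in Ehd3 cells, Aff3 0.983, Robo2 1.12 and Sema5a 0.852. Without each top cell Robo2 was 1.47, and without the member with most other-type UMIs Nell1 was 10.1 and Robo2 1.63. The planned form, with every marker, left 16 KO and 10 WT members: 0.317% (KO) and 0.239% (WT) of kept barcodes, 3.27% (KO) and 3.10% (WT) of the gate, WT cycling 70.0%, 173 genes higher and 115 lower, lysosomal 0.19, mitosis -1.77, contrasts 188 higher and 966 lower (Ehd3) and 331 higher (Gja4), and Robo2 5.93.

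Counting at 10 UMIs gave 1334 higher and 1107 lower genes, at 200 UMIs 51 higher and 67 lower. A 2-fold limit gave 74 higher and 52 lower, with contrasts of 5 higher and 20 lower (Ehd3) and 289 higher and 325 lower (Gja4). The mean of CPM over cells gave 602 higher and 577 lower, mitosis -0.048 and an Ehd3 contrast of 59 higher and 145 lower. Thinning to 3000 UMIs left 2680 genes to count and gave 138 higher and 121 lower, mitosis 0.034, contrasts of 8 higher and 8 lower (Ehd3) and 112 higher and 137 lower (Gja4), and Sgcz 1.39. Cycling shares were 78.2% (KO) and 72.1% (WT) at 1 mitosis UMI, 28.6% (KO) and 32.7% (WT) at 3, 30.3% (KO) and 35.6% (WT) after thinning to 1500, and 89.9% (KO) and 85.6% (WT) unthinned. The causes of these shifts were not tested. The glucocorticoid median stayed between 0.19 and 0.49. With 1 library per genotype, depth limits each ratio to counting error and says nothing of the spread between animals.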
